A study of Mus musculus with 6 samples.

Results

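Synaptic contacts are laid down by adhesion proteins that face each other across the cleft. Neurexins sit mainly on the presynaptic side and bind neuroligins and leucine-rich repeat (LRR) proteins on the postsynaptic side, while other LRR organizers reach presynaptic phosphatases or metabotropic glutamate receptors. In the retina these proteins take part in the wiring of photoreceptors to bipolar and horizontal cells and of bipolar cells to amacrine and ganglion cells. The 9 genes described here are the neurexins *Nrxn2* and *Nrxn3*, the neuroligins *Nlgn1*, *Nlgn2* and *Nlgn3*, and the LRR organizers *Elfn1*, *Elfn2*, *Lrrtm2* and *Lrrc4b*, selected by symbol from a list of names. All 9 were among the 11339 genes of the deposited table.

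RNA was sequenced from retinas of 3 *Mll1KO* and 3 WT samples (replicates a, b and c of each), all taken at postnatal day 14 (P14), with 2 retinas in each sample. *Mll1KO* mice were homozygous for a floxed *Mll1* allele (MLL1 fl/fl) and carried *Chx10-Cre*, whose Cre recombinase is made in retinal progenitors; the controls were wild type mice, and both groups are labelled as strain C57Bl6/J. A wild type control does not carry the Cre transgene or the floxed allele, so an effect of either cannot be told apart from the loss of MLL1. Levels are given as RPKM, reads divided by gene length and by the size of the library, which can be compared between genes; comparisons between samples depend on how the libraries are scaled. The libraries held 23836033 (a), 19777205 (b) and 19323512 (c) reads in WT, as recovered from the RPKM values, and 23348923 (a), 19855963 (b) and 17961097 (c) reads in *Mll1KO*. Each of the 9 genes had between 312 and 11249 reads in every library. The retinal origin was visible in 9 rod marker genes, whose summed level was at least 12830.9 RPKM in each WT sample.

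*Mll1* is listed under its current symbol *Kmt2a* and was at 36.1, 36.9 and 34.6 RPKM in WT a, b and c and at 22.9, 20.4 and 22.3 RPKM in *Mll1KO* a, b and c. Every *Mll1KO* sample was below every WT sample. Its log2 fold change was -0.69 ± 0.05 (SE; limma adjusted p = 2.77e-05). The level is that of the whole gene, of which only a part is flanked by *LoxP* sites; that part was not analysed on its own here.

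Differences between genotypes were tested with limma on log2(RPKM + 1), a scale that understates the change of weakly expressed genes, and a gene was called at an adjusted p under 0.05 over all 11339 genes. Of the 9 organizer genes, 6 were called lower in *Mll1KO* (*Nrxn2*, *Nrxn3*, *Nlgn1*, *Elfn1*, *Elfn2* and *Lrrc4b*), where 14.5% of all genes were called lower. None of the 9 was called higher, against 8.81% of all genes, and calls in either direction made up 23.3% of all genes. In 7 of the 9 genes the highest *Mll1KO* sample lay below the lowest WT sample, which was so for 26.5% of all genes. The differences were small: the median log2 fold change of the 9 genes was -0.16, beside -0.03 over all genes. The count differed between scalings and with single libraries left out. With TMM factors, which align the libraries on the bulk of genes, 3 of the 9 genes were called lower (*Nlgn1*, *Elfn2* and *Lrrc4b*), beside 10.3% of all genes, and the split of all calls moved from 999 higher and 1644 lower to 1257 higher and 1163 lower. The log2 fold changes of the genes whose call was lost moved little, from -0.14 to -0.11 for *Nrxn2*, from -0.16 to -0.13 for *Nrxn3* and from -0.21 to -0.17 for *Elfn1*. Setting the summed level of 9 rod genes equal in all libraries moved the median of all genes to -0.33, and all 9 organizer genes were then called lower, as were 85.7% of all genes. Without WT b only *Elfn2* and *Lrrc4b* were called, and without *Mll1KO* b only *Nlgn1*, *Elfn2* and *Lrrc4b*.

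In whole retina, fewer cells of a type and less RNA per cell cannot be told apart, and marker genes of several cell types moved between the genotypes. The counts below stand beside 14.5% of all genes called lower and 8.81% called higher. Of 11 bipolar markers, 6 were called lower and 0 higher, and their summed level was 532.0, 519.9 and 516.2 RPKM in WT a, b and c and 431.7, 445.3 and 452.0 RPKM in *Mll1KO* a, b and c. Of 6 horizontal cell markers, 5 were called lower and 0 higher, with sums of 129.4, 129.9 and 124.5 RPKM in WT and 88.8, 91.0 and 99.7 RPKM in *Mll1KO*; *Tfap2b* was the most abundant, and *Lhx1* and *Gja10* were not analysed here. Of 9 ganglion cell markers, 8 were called lower and 0 higher, with sums of 570.8, 530.8 and 558.4 RPKM in WT and 449.7, 399.4 and 372.3 RPKM in *Mll1KO*; *Sncg* was the most abundant, and *Pou4f3* and *Isl2* were not analysed here. All these sums were lower in every *Mll1KO* sample than in every WT sample. Amacrine markers were called in both directions, 4 lower and 2 higher of 10, and 4 lower and 4 higher with TMM factors. Their sum was 611.3, 617.0 and 638.2 RPKM in WT and 565.8, 544.2 and 570.0 RPKM in *Mll1KO*, with *Calb2* the most abundant and *Th* not analysed here. Without *Calb2* the amacrine sum was 369.1, 357.5 and 375.4 RPKM in WT and 366.3, 367.7 and 405.8 RPKM in *Mll1KO*, so that the genotypes overlapped, and the median log2 fold change of the list was 0.07. Rod markers went the other way, with 6 of 9 called higher and 1 lower, and sums of 13959.4, 12830.9 and 13289.9 RPKM in WT against 16909.3, 17184.0 and 16607.0 RPKM in *Mll1KO*. Of 10 Muller glia markers, 6 were called higher and 1 lower, with sums of 1442.6, 1419.2 and 1568.0 RPKM in WT and 1832.1, 1917.7 and 1882.7 RPKM in *Mll1KO*, *Glul* being the most abundant. Their part in the result for the organizer genes was not tested.

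**Figure D1:**
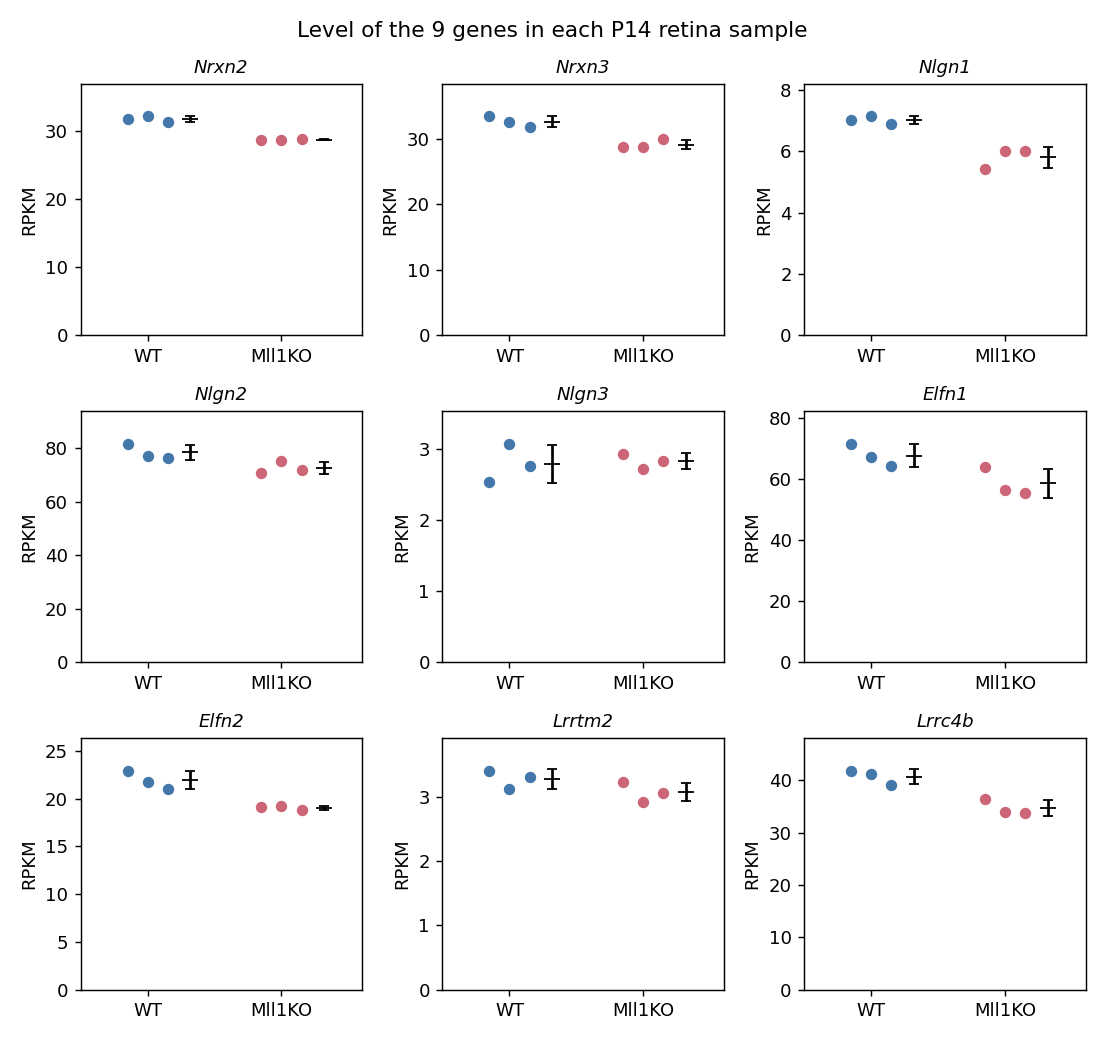
Level of each of the 9 genes in RPKM (vertical axes, starting at 0) in 3 WT (blue) and 3 *Mll1KO* (red) retina samples, with points in the order a, b, c and black bars for the mean ± SD of each genotype (n = 3). The groups are separate in 7 panels and overlap in *Nlgn3* and *Lrrtm2*.

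In WT the level fell from *Nlgn2* (78.3 RPKM) through *Elfn1* (67.7 RPKM), *Lrrc4b* (40.7 RPKM), *Nrxn3* (32.6 RPKM), *Nrxn2* (31.8 RPKM), *Elfn2* (21.9 RPKM), *Nlgn1* (7.01 RPKM) and *Lrrtm2* (3.28 RPKM) to *Nlgn3* (2.78 RPKM). Neighbours in this order did not overlap among the WT samples except *Nrxn3* and *Nrxn2*, and the same held among the *Mll1KO* samples, where *Lrrtm2* and *Nlgn3* nearly met. *Nlgn2* was thus above 96.4% of all genes in WT, and *Nlgn3* above 10.9%.

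Neurexins are transcribed from separate promoters as a long alpha and a short beta form, and a single level per gene sums over both. *Nrxn2* (ENSMUSG00000033768, GRCm38 chr19:6418731-6544169, plus strand) was at 31.9, 32.2 and 31.4 RPKM in WT a, b and c and at 28.8, 28.7 and 28.9 RPKM in *Mll1KO* a, b and c. The samples of a genotype lay close together and the genotypes did not overlap. Its level in *Mll1KO* was 90.5% of WT, with a log2 fold change of -0.14 ± 0.04 (SE; limma adjusted p = 0.0215). *Nrxn3* (ENSMUSG00000066392, chr12:88722876-90334935, plus strand), a gene of 1610 kb, was at 33.4, 32.6 and 31.8 RPKM in WT and at 28.7, 28.8 and 29.9 RPKM in *Mll1KO*. Again the genotypes were separate, with *Mll1KO* c nearest to WT. Its log2 fold change was -0.16 ± 0.04 (SE; limma adjusted p = 0.0187).

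Neither neurexin was called with TMM factors (limma adjusted p = 0.0642 for *Nrxn2* and 0.0563 for *Nrxn3*). *Nrxn2* was also not called without WT b (limma adjusted p = 0.0849), *Mll1KO* b (0.0615) or *Mll1KO* c (0.0644), and its adjusted p ranged from 8.3e-06 to 0.0849 over 15 alternatives. *Nrxn3* was not called without WT a (limma adjusted p = 0.0518), WT b (0.0632) or *Mll1KO* b (0.0596), with a range from 6.12e-06 to 0.0632. The log2 fold change of both was below 0 in all 15. The ratio of *Nrxn2* to *Nrxn3* within a library, which is free of scaling, lay between 0.954 and 0.988 in WT and between 0.966 and 1.0 in *Mll1KO* (exact two-sided permutation test, p = 0.5, 0.625 after adjustment over 5 ratios). The smallest p that 3 against 3 samples allow is 0.1.

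Neuroligins bind neurexins from the postsynaptic membrane, with neuroligin 1 known from excitatory synapses, neuroligin 2 from inhibitory ones and neuroligin 3 from both. *Nlgn1* (ENSMUSG00000063887, chr3:25426215-26332460, minus strand) was at 7.02, 7.13 and 6.87 RPKM in WT a, b and c and at 5.41, 6.0 and 5.99 RPKM in *Mll1KO* a, b and c. The genotypes were well apart, with *Mll1KO* a the lowest. Its log2 fold change was -0.24 (95% interval -0.36 to -0.11, limma adjusted p = 0.0128), and 7.8% of all genes had a lower one. Without WT b it was not called (limma adjusted p = 0.0521, the highest of its 15 alternatives, which went down to 1.57e-05). Of its 13422 annotated exon bases, 9.2% overlap the antisense gene *A830092H15Rik*. The length behind its RPKM was 4359 bases, and whether the overlapped bases were among them was not tested.

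*Nlgn2* (ENSMUSG00000051790, chr11:69823122-69837784, minus strand), at the postsynaptic side of GABAergic and glycinergic contacts, was at 81.6, 77.0 and 76.2 RPKM in WT and at 70.6, 75.2 and 71.8 RPKM in *Mll1KO*. The genotypes did not overlap, but *Mll1KO* b came close to WT c. The log2 fold change of -0.11 (95% interval -0.20 to -0.01) was not called (limma adjusted p = 0.0976). *Nlgn3* (ENSMUSG00000031302, chrX:101299168-101325963, plus strand) was at 2.53, 3.07 and 2.75 RPKM in WT and at 2.93, 2.72 and 2.83 RPKM in *Mll1KO*. The 3 *Mll1KO* values lay inside the range of WT. Its log2 fold change was 0.02 (95% interval -0.12 to 0.16, limma adjusted p = 0.851). It turned to -0.23 with an equal rod sum (limma adjusted p = 0.0129) and to -0.03 without WT a (0.794), the adjusted p of its alternatives ranging from 0.0129 to 0.997. The annotated gene *Gm21986* on the same strand overlaps 41.2% of its exon bases, so the level of *Nlgn3* is uncertain. Antisense genes overlap 6.4% of the annotated exon bases of *Nrxn2*, 3.5% of *Nrxn3*, 3.3% of *Elfn2* and 1.6% of *Lrrtm2*, and no annotated gene overlaps those of *Nlgn2*, *Elfn1* and *Lrrc4b*.

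Within the neuroligins, the ratio of *Nlgn1* to *Nlgn2* was 0.086, 0.0927 and 0.0902 in WT a, b and c and 0.0767, 0.0798 and 0.0834 in *Mll1KO* a, b and c. All 3 *Mll1KO* ratios were below all 3 WT ratios, a log2 difference of -0.16 (exact two-sided permutation test, p = 0.1, 0.25 after adjustment over 5 ratios). The ratio of *Nlgn3* to *Nlgn2* overlapped between the genotypes (log2 difference 0.14, exact two-sided permutation test, p = 0.4, adjusted 0.625).

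*Elfn1* and *Elfn2* encode LRR proteins that bind group III metabotropic glutamate receptors across the cleft; ELFN1 is made by rods and is needed for their contact with the bipolar cell receptor mGluR6. *Elfn1* (ENSMUSG00000048988, chr5:139907943-139974722, plus strand) was at 71.6, 67.3 and 64.3 RPKM in WT a, b and c and at 64.1, 56.3 and 55.5 RPKM in *Mll1KO* a, b and c. The highest *Mll1KO* sample almost reached the lowest WT sample. The log2 fold change of -0.21 was called (SE 0.06; limma adjusted p = 0.0359), while rod marker genes were mostly higher. It was called in 8 of the 15 alternatives, the fewest among the 6 called genes, and the call was lost with TMM factors (limma adjusted p = 0.0747) and without WT a (0.109), WT b (0.0878), *Mll1KO* b (0.108) or *Mll1KO* c (0.129), within a range of 4.89e-06 to 0.129. *Elfn2* (ENSMUSG00000043460, chr15:78667331-78718771, minus strand) was at 22.9, 21.7 and 21.0 RPKM in WT and at 19.1, 19.2 and 18.8 RPKM in *Mll1KO*. The *Mll1KO* samples were nearly equal and all below WT. It was 87.0% of WT, with a log2 fold change of -0.19 ± 0.04 (SE; limma adjusted p = 0.0125), and was called in all 15 alternatives, with adjusted p between 4.08e-06 and 0.0482. The ratio of *Elfn1* to *Elfn2* was 3.13, 3.10 and 3.05 in WT and 3.36, 2.93 and 2.94 in *Mll1KO*. The *Mll1KO* ratios lay on both sides of WT (log2 difference -0.01, exact two-sided permutation test, p = 1.0).

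Of the receptors that ELFN proteins bind, all 4 in the table were called, 3 lower and 1 higher, beside 14.5% and 8.81% of all genes. With TMM factors 2 were called lower, beside 10.3% of all genes, and 1 higher, beside 1257 of all 11339 genes. *Grm6*, which encodes mGluR6 of ON bipolar cells, was at 79.0, 80.5 and 72.8 RPKM in WT and at 72.8, 59.5 and 62.0 RPKM in *Mll1KO*, so that *Mll1KO* a met WT c. Its log2 fold change was -0.26 ± 0.07 (SE; limma adjusted p = 0.0284), and it was lost with TMM factors (0.0502) and without WT a (0.0823), WT b (0.0972), *Mll1KO* b (0.0919) or *Mll1KO* c (0.102), over a range of 8.23e-06 to 0.102. *Grm4* (-0.25, limma adjusted p = 0.00636) and *Grm7* (-0.25, limma adjusted p = 0.0191) were lower too, the latter not being called without WT a (0.0661), WT b (0.0677) or *Mll1KO* c (0.0745), in a range of 1.48e-05 to 0.0745. *Grm8* was the exception, averaging 3.31 RPKM in WT and 4.64 RPKM in *Mll1KO*, a log2 fold change of 0.39 (limma adjusted p = 0.00179), which was 0.12 and not called with an equal rod sum.

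*Lrrc4b*, also called NGL-3, binds presynaptic phosphatases of the LAR type. *Lrrc4b* (ENSMUSG00000047085, chr7:44429018-44463351, plus strand) was at 41.8, 41.2 and 39.1 RPKM in WT a, b and c and at 36.4, 34.0 and 33.7 RPKM in *Mll1KO* a, b and c. The genotypes were clearly separate. Its log2 fold change was -0.23 (SE 0.04; limma adjusted p = 0.00626), and it was called in all 15 alternatives, with adjusted p between 2.3e-06 and 0.0314. Of its 3 phosphatase partners in the table, *Ptprd* (-0.20, limma adjusted p = 0.00998) and *Ptprs* (-0.17, limma adjusted p = 0.0173) were called lower and *Ptprf* was not called; *Ptprs* was not called without WT b (0.067) or *Mll1KO* c (0.0743), in a range of 4.71e-06 to 0.0743.

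*Lrrtm2*, a postsynaptic neurexin ligand of excitatory synapses (ENSMUSG00000071862), was at 3.41, 3.12 and 3.32 RPKM in WT and at 3.23, 2.93 and 3.07 RPKM in *Mll1KO*. The genotypes overlapped. The log2 fold change of -0.07 (95% interval -0.20 to 0.05) was not called (limma adjusted p = 0.39). With an equal rod sum it was -0.33, which is the median of all genes under that scaling. The ratio of *Lrrtm2* to *Lrrc4b* was 0.0817, 0.0756 and 0.0848 in WT and 0.0888, 0.0864 and 0.091 in *Mll1KO*. All *Mll1KO* ratios were above all WT ratios, a log2 difference of 0.14 (exact two-sided permutation test, p = 0.1, adjusted 0.25).

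**Figure D2:**
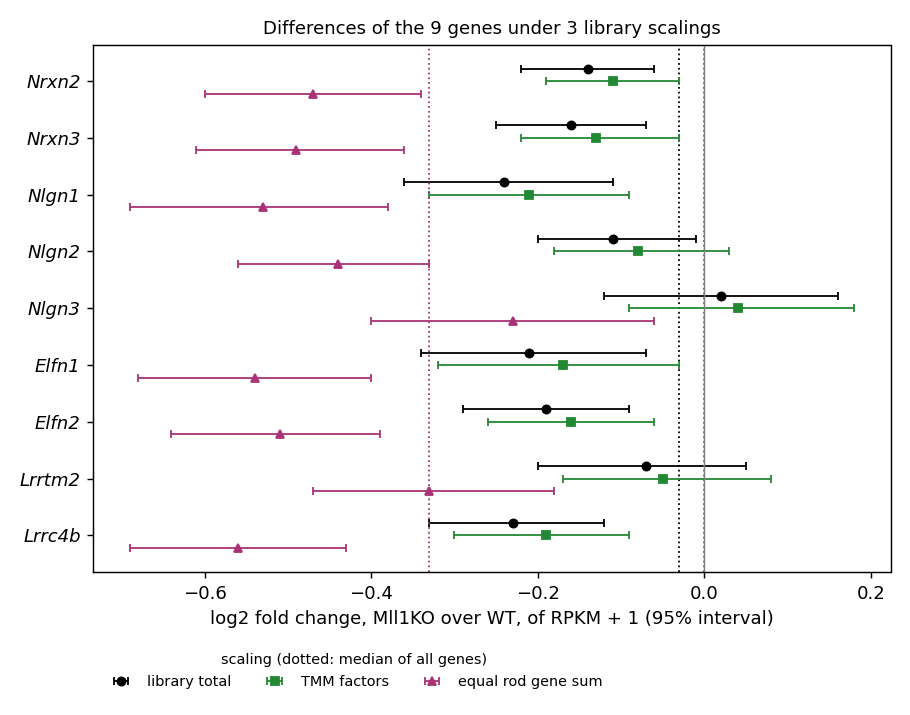
Log2 fold change of RPKM + 1 in *Mll1KO* over WT (horizontal axis) for the 9 genes, with 95% intervals from limma (3 samples per genotype), under scaling to the library total (black), TMM factors (green) and an equal rod sum (purple). Dotted lines mark the median of all genes, at -0.03 with the library total and -0.33 with the equal rod sum; *Nlgn3* is the gene that changes sign.

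Most genes of the wider LRR organizer family were not called. Of 26 genes in the table, *Elfn1*, *Elfn2*, *Lrrtm2* and *Lrrc4b* included, 6 were called lower, 4 higher and 16 neither, with a median log2 fold change of -0.02. Among the other 22 genes 3 were called lower and 4 higher, beside 14.5% and 8.81% of all genes, with a median of 0.00. *Lrrc4* (NGL-2), a relative of *Lrrc4b* that binds netrin-G2 and is known from horizontal cell axons at rod terminals, was at 13.4, 12.8 and 12.5 RPKM in WT and at 7.16, 6.91 and 7.31 RPKM in *Mll1KO*. This was 55.3% of WT, a log2 fold change of -0.77 ± 0.05 (SE; limma adjusted p = 1.32e-05), larger in size than that of each of the 9 genes. *Slitrk6* was also lower (-0.23, limma adjusted p = 0.0138), but not called without *Mll1KO* c (0.0567, in a range of 1.3e-05 to 0.0567). At the other end *Lrfn2* lay between 6.66 and 7.26 RPKM in WT and between 9.01 and 12.4 RPKM in *Mll1KO*, with a log2 fold change of 0.55 (limma adjusted p = 0.00271). *Lrit2* was higher as well (0.32, limma adjusted p = 0.00181), and *Lrrtm3*, a paralog of *Lrrtm2*, had a log2 fold change of 0.22 (limma adjusted p = 0.0174) that was not called without WT a (0.0613) or WT b (0.0549), in a range of 0.0092 to 0.716. Both were below 0 with an equal rod sum. *Lrit1*, the most abundant of the family with 94.4 RPKM in WT, did not pass the test.

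**Figure D3:**
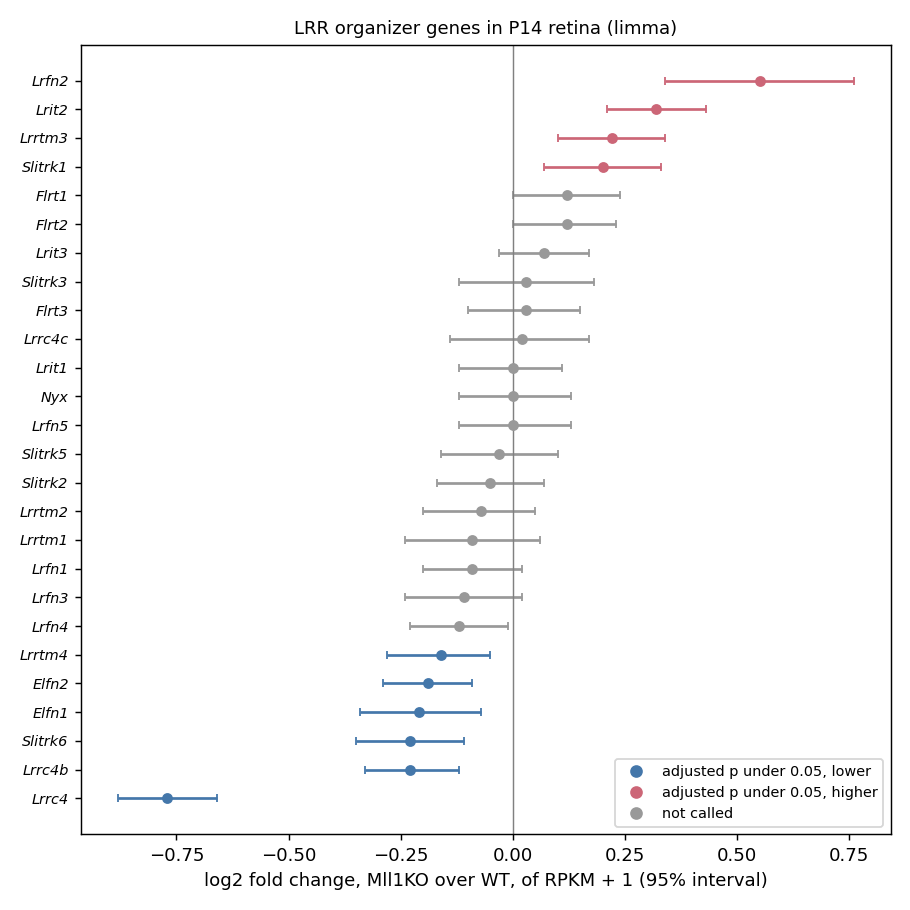
Log2 fold change of RPKM + 1 in *Mll1KO* over WT (horizontal axis) for the 26 LRR organizer genes, with 95% intervals from limma (3 samples per genotype). The 6 genes called lower are blue, the 4 called higher red and the others grey, from *Lrrc4* at -0.77 to *Lrfn2* at 0.55; with an equal rod sum *Lrit2* and *Lrrtm3* lie below 0.

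Secreted and membrane proteins that bind neurexins from outside the neuroligin and LRR families, such as neurexophilins, cerebellins and C1q-like proteins, were called in both directions, 9 lower and 4 higher of 18, where 14.5% of all genes were lower and 8.81% higher. *Nxph1*, a ligand of alpha-neurexins, was at 2.24, 2.21 and 2.24 RPKM in WT and at 1.21, 1.14 and 1.41 RPKM in *Mll1KO*, a log2 fold change of -0.52 (limma adjusted p = 0.00024). *Nxph4* (-0.46, limma adjusted p = 0.000696) and *Cbln1* (-0.41, limma adjusted p = 0.00669) were lower too, while *C1ql3* (0.42, limma adjusted p = 0.001), *C1ql2* (0.35, limma adjusted p = 0.00612) and *Cbln2* (0.32, limma adjusted p = 0.00931) were higher. With an equal rod sum none of these 3 was called. *Clstn1*, the most abundant at 373.3 RPKM in WT, was not called. Of the MDGA proteins, which cover the neurexin site of neuroligins, *Mdga2* was called lower (-0.24, limma adjusted p = 0.0113; 0.0505 without WT b, in a range of 2.18e-05 to 0.0505) and *Mdga1* was not called. The 3 KHDRBS genes, whose products regulate the splicing of neurexin transcripts, were not called. Over all 95 pathway genes in the table, the 9 included, 35 were called lower and 11 higher, beside 14.5% and 8.81% of all genes, with a median log2 fold change of -0.08. Without the 9, 29 of 86 were called lower and 11 higher, with a median of -0.06. With TMM factors 26 of all 95 were lower, beside 10.3% of all genes, and 13 higher, beside 1257 of all 11339 genes. With an equal rod sum 81 were lower, where 85.7% of all genes were called lower, and 2 higher, beside 182 of all 11339 genes.

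MLL1 has a CXXC domain that binds DNA with unmethylated CpG, and the motif CG was therefore counted in the 250 bases before the RefSeq starts (GRCm38.p6). The motif reads the same on both strands. The set of RefSeq windows used here held 6 of the 9 genes, 9 windows in all, and did not include *Nrxn2*, *Nlgn3* and *Lrrtm2*. The 9 windows had a median of 6 CG per window, beside a median of 6 over all 32851 windows and of 16 over the windows of genes in the table. The windows of *Lrrc4b*, *Nlgn1* and *Nrxn3* lay within the annotated span of the gene, not before its first base. The median of the 9 windows may therefore not describe the starts in use. The counts spanned a wide range among genes that were called lower. *Elfn2* had 25 CG, a count that 10.7% of all windows and 21.8% of the windows of genes in the table reached, while *Elfn1* had 6, which 50.4% and 84.8% reached. The RefSeq start behind this *Elfn1* window lay in no GENCODE transcript, unlike those of the other windows shown, so its low count may not describe the start in use. *Nlgn2*, which was not called, had 18 (21.7% and 44.3%), and the *Nrxn3* window shown had 12 (33.5% and 66.6%), the other *Nrxn3* windows having 2 and 5. The *Nrxn3* window shown lay far downstream of the annotated start of the gene at chr12:88722876. No *Nrxn3* window lay at that start, and which form of the gene each window serves was not tested. These 4 windows are shown for that contrast, 5′ to 3′ on the strand of the gene, with CG in capitals: *Elfn2* at chr15:78718772-78719021 (minus strand), *Elfn1* at chr5:139907616-139907865 (plus strand), *Nlgn2* at chr11:69837785-69838034 (minus strand) and *Nrxn3* at chr12:89812233-89812482 (plus strand), each outside annotated exons.
Elfn2: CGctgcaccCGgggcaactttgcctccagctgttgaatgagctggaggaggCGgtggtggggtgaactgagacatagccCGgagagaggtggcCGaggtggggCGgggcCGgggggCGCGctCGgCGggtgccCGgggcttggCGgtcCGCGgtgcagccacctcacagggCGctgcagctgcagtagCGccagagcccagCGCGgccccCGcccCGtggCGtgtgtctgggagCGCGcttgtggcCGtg
Elfn1: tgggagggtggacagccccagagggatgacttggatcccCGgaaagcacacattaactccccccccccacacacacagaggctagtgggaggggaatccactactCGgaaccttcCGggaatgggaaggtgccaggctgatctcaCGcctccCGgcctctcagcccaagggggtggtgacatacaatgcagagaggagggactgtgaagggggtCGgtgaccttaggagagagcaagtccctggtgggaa
Nlgn2: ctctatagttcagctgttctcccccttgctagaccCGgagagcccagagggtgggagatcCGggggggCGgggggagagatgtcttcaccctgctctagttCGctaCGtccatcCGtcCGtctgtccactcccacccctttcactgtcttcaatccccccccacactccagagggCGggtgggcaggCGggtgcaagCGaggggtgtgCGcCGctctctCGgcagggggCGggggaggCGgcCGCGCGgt
Nrxn3: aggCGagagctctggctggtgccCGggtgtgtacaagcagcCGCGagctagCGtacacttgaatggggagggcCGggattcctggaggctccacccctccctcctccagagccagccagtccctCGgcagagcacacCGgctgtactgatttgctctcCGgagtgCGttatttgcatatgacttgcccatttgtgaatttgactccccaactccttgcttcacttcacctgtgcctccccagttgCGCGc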

How the data were processed

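Reads were mapped by the authors with STAR 2.0.4b (build mm10 per the labels) and counted with featureCounts 1.45 of Subread; genes with a CPM above 5 in at least 5 samples were kept and deposited as RPKM per gene and sample, and strand use in counting was not given in the sources used here. Their columns of log2 fold change, log2 CPM, p-value and FDR from edgeR (3.17.9 per the labels) were not used. The table has 11404 lines for 11339 genes, since 59 IDs are repeated with identical values. Whole reads (within 0.01 reads wherever possible) and library totals were recovered from RPKM and used for depth, scaling factors and limma-voom. Genotypes were compared with limma 3.58.1 in R 4.3.3 on log2(RPKM + 1) with a variance trend, without covariates, with Benjamini-Hochberg adjustment over 11339 genes. Within-family ratios were compared by exact permutation over the 6 samples. The procedure was tested on simulated data. Named were the 9 genes, *Kmt2a*, in each pathway list every called gene (for over 6 genes, the 3 lowest and 3 highest log2 fold changes among called genes) and the most abundant gene, and in each cell type list the most abundant, lowest and highest gene; a few of these are not reported here. The genes and lists were chosen with earlier results of these data known. Coordinates are from GENCODE vM21 (GRCm38). Alternatives were pseudocounts of 0.1 and 5, TMM, RLE and upper-quartile factors, an equal rod sum, limma-voom, a mean RPKM of at least 1, a term for the replicate letter, and each library left out.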

Additional observations from a re-analysis of the deposited data

How the results depend on the processing

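Of 9 organizer genes, 6 were called at the deposited scaling. The count was 3 with TMM, RLE and upper-quartile factors, 9 with an equal rod sum, and between 2 and 6 with 1 library left out; the cause was not tested. Calls over all genes went from 2643 to 9894 with an equal rod sum, whose median over all genes was -0.33 (log2), and to between 1704 and 2536 with a library left out. Calls among pathway genes went from 46 to 83 and to between 29 and 44.

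With an equal rod sum the log2 fold change reversed to -0.23 for *Nlgn3*, -0.027 for *Lrrtm3*, -0.015 for *Lrit2*, -0.30 for *Clstn1*, -0.16 for *Mdga1*, -0.15 for *Dlgap1*, -0.33 for *Khdrbs3*, -0.27 for *Pcp2*, -0.034 for *Gad1*, -0.12 for *C1qc* and -0.29 for *Pdgfrb*. *Lrit1* went from -0.003 to 0.030 with TMM factors and 0.032 with RLE and with upper-quartile factors. With libraries left out, values that changed sign ranged from -0.028 to 0.074 (*Nlgn3*), -0.061 to 0.034 (*Lrit1*), -0.019 to 0.031 (*Khdrbs3*), -0.003 to 0.126 (*Pcp2*), -0.031 to 0.037 (*Pdgfrb*) and -0.982 to 0.143 (*Tyrp1*). The log2 difference between the genotypes (*Mll1KO* minus WT) in the ratio of *Elfn1* to *Elfn2* then ranged from -0.08 to 0.02. The causes were not tested.

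A term for the replicate letter, as a replicate block, gave 6 called organizer genes, 2242 called genes and 41 pathway calls; *Dlgap2* (limma adjusted p = 0.0723), *Dlgap1* (0.0787) and *Cadm3* (0.0512) were then not called. Same-letter deviations from the genotype means correlated at -0.039, -0.19 and -0.007, and those of unlike letters at -0.092 to 0.132. With 3 samples a group these values cannot decide whether the letters pair the samples.

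With 3 samples a group, exact tests cannot fall below p = 0.1. *Nlgn1*, which was called, had at most 729 reads in a library, *Nlgn3* at most 635 reads and *Lrrtm2* at most 461 reads, which limits the precision of their levels.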

Other observations

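Inside the cell, neurexins and neuroligins are tied to scaffold proteins. Of 22 such partners, 7 were called lower and 2 higher in *Mll1KO*, with a median log2 fold change of -0.10, beside 14.5% of all genes called lower and 8.81% higher. *Shank3*, a postsynaptic scaffold, averaged 8.17 RPKM in WT and 5.6 RPKM in *Mll1KO* without overlap (log2 fold change -0.47, limma adjusted p = 0.000595). *Dlgap3* (-0.31, limma adjusted p = 0.000679) and *Apba2* (-0.30, limma adjusted p = 0.00202) were lower, and *Lin7b*, of the CASK complex that binds neurexins, was higher (0.52, limma adjusted p = 0.00175). *Dlgap2* (-0.18, limma adjusted p = 0.0334) and *Dlgap1* (0.16, limma adjusted p = 0.044) were near the threshold and were not called in 9 and 7 of 15 alternatives, with adjusted p ranging from 9.15e-05 to 0.105 and from 0.0085 to 0.154. The call of *Dlgap2* was lost with TMM factors (0.0509) and without WT a (0.0621), WT b (0.105), WT c (0.077), *Mll1KO* b (0.0979) or *Mll1KO* c (0.0984). That of *Dlgap1* was lost without WT a (0.0668), WT b (0.154), WT c (0.0788), *Mll1KO* b (0.101) or *Mll1KO* c (0.132), and its log2 fold change was below 0 with an equal rod sum. *Dlg4*, which encodes PSD-95 and was the most abundant at 252.1 RPKM in WT, was not called.

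Among 11 other synaptic adhesion genes, 4 were called lower and 0 higher, beside the same shares of all genes. The teneurins *Tenm3* (69.2% of WT, log2 fold change -0.50, limma adjusted p = 6.6e-05) and *Tenm2* (74.6% of WT, log2 fold change -0.38, limma adjusted p = 0.000476) had the lowest fold changes of this list, followed by *Igsf9b* (-0.36, limma adjusted p = 0.00663). *Cadm3*, the most abundant, was lower by a small margin (-0.14, limma adjusted p = 0.0434) and was not called in 9 of 15 alternatives, with adjusted p ranging from 3.37e-06 to 0.148. These include TMM factors (0.131) and leaving out WT a (0.0942), WT b (0.0754), *Mll1KO* a (0.0603), *Mll1KO* b (0.105) or *Mll1KO* c (0.13).

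Of the remaining marker lists, 7 of 8 cone genes were called higher and 1 lower, and 3 of 3 astrocyte genes higher. Over all genes, 8.81% were called higher and 14.5% lower. Of 7 endothelial genes 3 were called lower and 1 higher, and of 3 pericyte genes 2 were lower. None of 4 microglia genes and 2 pigment epithelium genes was called at the deposited scaling with all libraries. With an equal rod sum *C1qb* (-0.42, limma adjusted p = 0.000299) and *Ttr* (-0.62, limma adjusted p = 0.00222) were called lower, as were 85.7% of all genes. Leaving out WT b, where *Tyrp1* was at 4.86 RPKM against 20.7 in WT a and 26.9 in WT c, *Tyrp1* was called lower (-0.98, limma adjusted p = 0.0153). *Ttr* was called lower without *Mll1KO* b (-0.54, limma adjusted p = 0.0313) and *C1qb* without *Mll1KO* c (-0.20, limma adjusted p = 0.0495).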
